A study of Rattus norvegicus with 19 samples.

Results

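Microglia and antigen presentation were followed through 6 genes out of the 30560 in the count table. They were chosen by identifier and were Aif1 (ENSRNOG00000000853), Itgam (ENSRNOG00000019728), Cd68 (ENSRNOG00000037563), Ptprc (ENSRNOG00000000655), Cd74 (ENSRNOG00000018735) and B2m (ENSRNOG00000017123). Genes averaging under 5 counts were to be dropped, and none was, so all 6 were tested in every comparison. RNA came from bilateral punches of the paraventricular nucleus (PVN), a hypothalamic centre of autonomic and neuroendocrine control, in rats aged 14 weeks. Spontaneously Hypertensive Rats (SHR), an inbred strain that becomes hypertensive without treatment, were compared with normotensive Wistar rats, an outbred stock, with 4 libraries from Wistar males and 5 from each of the groups of SHR males, females of the Wistar stock and SHR females. The labels give no treatment for any group. The study's methods describe a blood pressure probe implanted in the abdomen in rats of all groups and sampling of females in dioestrus. They also name ketamine and xylazine anaesthesia for this surgery, with gentamicin against infection and carprofen for pain relief around it. Between 44943945 and 58793511 counts per library were assigned to genes, and levels are given here as CPM, a gene's count divided by its library's total and scaled to a total of 1000000 counts.

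Microglia are the resident macrophages of the brain, and they survey the tissue, take up debris and can present antigen. Antigen presentation has a pair of branches: MHC class II molecules, assembled with the invariant chain Cd74, carry peptides from outside the cell and are made mainly by specialised presenting cells, while MHC class I molecules, which need B2m, are found on nearly all nucleated cells. Itgam, Cd68 and Ptprc are shared by microglia, other macrophages and blood leukocytes, so none of the 6 genes marks microglia alone. In bulk RNA, fewer cells of a type and less RNA per cell cannot be told apart. The deposited table lists genes by identifier only, and the reference tables did not pair these identifiers with symbols, so the check of the tissue and of other cell types by their marker genes was not analysed here.

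Promoter sequences from RefSeq were at hand for 5 of the 6 genes, Aif1 being the exception. The 250 bases before the start of transcription are printed for Cd74 and Ptprc, which were called lower in SHR in at least 1 comparison, and for B2m, the class I gene that was not. Capitals mark every match, on either strand, to CCAAT, the core of the element bound by the factor NF-Y, or to GGAAGT, a core sequence of the ETS family to which the macrophage regulator PU.1 belongs. A match on the opposite strand reads ATTGG for the first and, for the second, ACTTCC.
Cd74 (GRCr8, chr18:56526956-56527205, + strand): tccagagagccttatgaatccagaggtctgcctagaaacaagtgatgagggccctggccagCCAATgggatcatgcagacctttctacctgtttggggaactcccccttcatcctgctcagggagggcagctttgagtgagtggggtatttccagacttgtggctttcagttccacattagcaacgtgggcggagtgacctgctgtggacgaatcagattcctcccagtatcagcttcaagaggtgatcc
Ptprc (GRCr8, chr13:52259747-52259996, - strand): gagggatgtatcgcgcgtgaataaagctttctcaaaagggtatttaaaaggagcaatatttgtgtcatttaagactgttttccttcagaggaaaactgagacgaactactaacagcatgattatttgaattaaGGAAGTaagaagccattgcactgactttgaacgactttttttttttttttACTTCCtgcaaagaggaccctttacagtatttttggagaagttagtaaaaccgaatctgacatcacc
B2m (GRCr8, chr3:129549080-129549329, + strand): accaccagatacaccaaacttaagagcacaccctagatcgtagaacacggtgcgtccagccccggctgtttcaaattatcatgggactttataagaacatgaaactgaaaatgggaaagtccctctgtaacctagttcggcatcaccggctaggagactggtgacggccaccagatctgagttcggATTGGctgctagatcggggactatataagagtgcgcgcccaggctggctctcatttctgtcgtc
CCAAT was present in 34.0% and GGAAGT in 19.2% of 33469 promoter windows of the same length. The Cd74 window held 1 CCAAT match, starting 189 bases before the start, and the B2m window held 1, on the opposite strand, starting 64 bases before it. Ptprc held 2 matches to GGAAGT, 117 and 67 bases before the start, on opposite strands. Cd68 held 1 match to each motif and Itgam none. A match describes letters in the window and shows no binding.

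In males, Aif1, Ptprc and Cd74 were lower in SHR than in Wistar rats, and none of the 6 genes was called higher. The other 3 genes, Itgam, Cd68 and B2m, did not pass the test. Thus 3 of 6 genes were called (quasi-likelihood test of edgeR, p adjusted by Benjamini-Hochberg over all genes tested, threshold 0.05), beside 12% of the 17461 genes tested, of which those lower in SHR made up 6.90% of the tested genes. The median log2 fold change was -0.51 over the 6 genes and -0.00364 over all genes.

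In females, Cd74 alone among the 6 genes passed the test, and it was lower in SHR. That is 1 of 6 genes, beside 2.32% of 17404 genes called in either direction and 1.42% called lower in SHR. The median log2 fold change of the 6 genes was -0.06. With both sexes averaged in a fit of all 19 libraries, Aif1 and Cd74 were lower in SHR, 2 of 6 genes, beside 15.1% of 17432 genes called in either direction and 8.25% called lower. The averaged comparison shares libraries with the male and with the female comparison and is independent of neither. Replicate 4 was the highest of its group for all 6 genes in Wistar females and again in SHR females. Some of these margins were narrow, as for Itgam in Wistar females (11.9 against 11.5 CPM). How often replicate 4 was the highest over all genes was not counted. An alternative chosen after seeing the data left out female replicate 4 of both strains. Cd74 still passed in females (log2 fold change -1.69 ± 0.24 SE, edgeR adjusted p = 0.0141), 1 of 6 genes, beside 141 of 17382 genes tested. Aif1 and Cd74 still passed in the averaged comparison, 2 of 6 genes, beside 1981 of 17422.

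**Figure D1:**
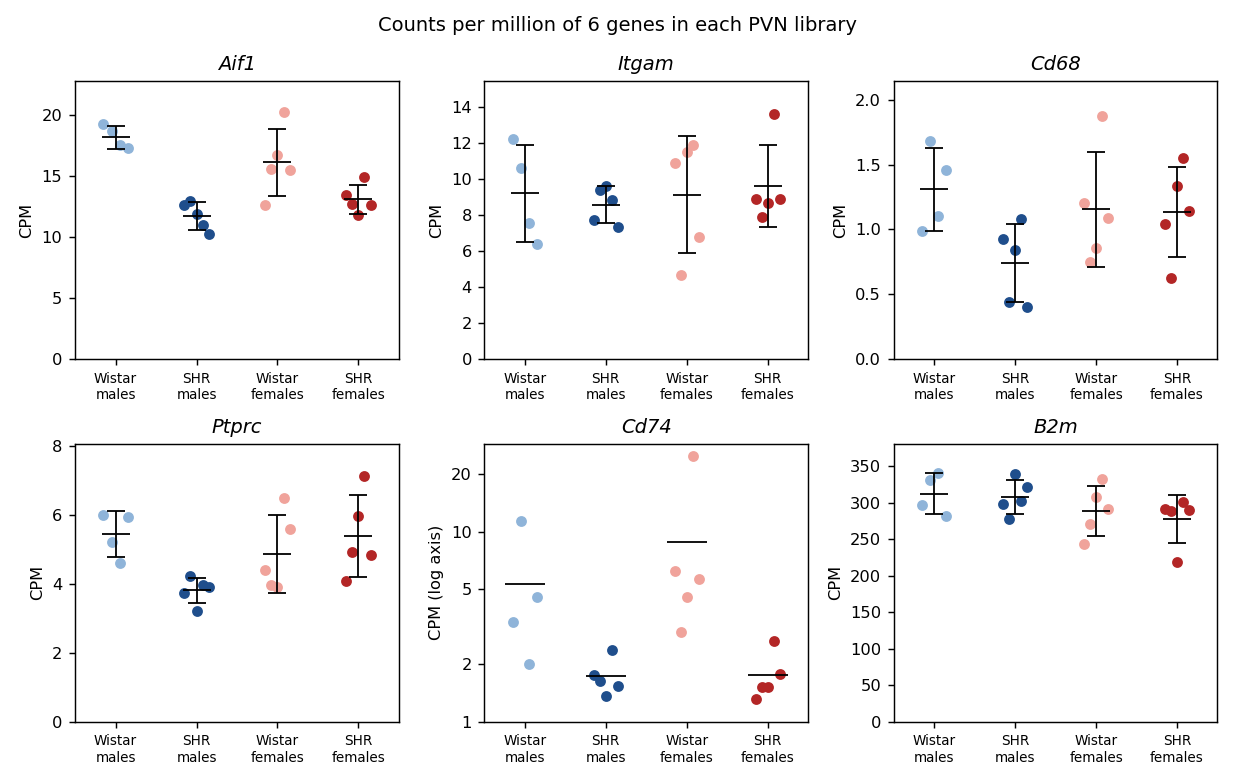
CPM of each gene (vertical axes, linear from 0 except for Cd74, which has a log axis) in every library of the 4 groups. Points are single libraries and horizontal bars are group means, with the standard deviation as whiskers except for Cd74. Aif1 and Cd74 lay lower in SHR than in Wistar rats in both sexes by their group means, and B2m lay between 219 and 340 CPM in every library.

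Aif1 encodes Iba1, the actin-bundling protein used to stain microglia and macrophages. It stood at 19.2, 18.6, 17.5 and 17.2 CPM in the Wistar male libraries (replicates 2 to 5) and at 12.6, 12.9, 11.9, 11 and 10.2 CPM in SHR males 1 to 5. Every SHR male lay below every Wistar male. The groups averaged 18.2 ± 0.929 (SD, n = 4) and 11.7 ± 1.11 CPM (SD, n = 5), a log2 fold change of -0.57 ± 0.10 (SE), or 1.49-fold lower, with an adjusted p of 0.00331 in edgeR. The call held in each of the 9 fits that left out 1 library, with adjusted p from 0.00295 to 0.0117.

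In females the Aif1 groups overlapped. Wistar females 1 to 5 had 12.6, 15.5, 16.7, 20.2 and 15.5 CPM, and SHR females 1 to 5 had 13.5, 12.7, 11.8, 14.9 and 12.6 CPM. The log2 fold change was -0.32 ± 0.11 (SE), with an edgeR adjusted p of 0.152 and an unadjusted p of 0.0114, so it did not pass. Averaged over the sexes, Aif1 fell by 0.44 ± 0.07 (SE) on the log2 scale (edgeR, adjusted p = 0.000441), and the 19 fits without 1 library each gave adjusted p from 0.000217 to 0.00139. The difference between the male and the female strain effect was 0.26 ± 0.15 (SE) on the log2 scale, with an adjusted p of 0.436 in edgeR, and was not shown.

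Ptprc encodes the leukocyte phosphatase CD45, which sets the threshold of antigen receptor and integrin signalling. Its levels were 6.01, 5.21, 4.61 and 5.95 CPM in Wistar males 2 to 5 and 3.73, 4.22, 3.22, 3.97 and 3.91 CPM in SHR males 1 to 5. The male groups did not overlap, as for Aif1, and these were the 2 of 6 genes with every SHR male below every Wistar male, a pattern of 10.1% of all genes tested. Ptprc was 1.37-fold lower in SHR males, at a log2 fold change of -0.45 ± 0.12 (SE; edgeR, adjusted p = 0.0343). This call was near the threshold. It was kept without SHR male 2 (adjusted p = 0.0364) or Wistar male 4 (0.0289) and lost without any of the other 7 libraries, with values up to 0.0872.

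In females Ptprc ran in the other direction without passing the test. Wistar females 1 to 5 had 4.41, 3.98, 3.90, 6.48 and 5.58 CPM and SHR females 1 to 5 had 4.07, 4.94, 5.97, 7.14 and 4.85 CPM. The ranges overlapped widely, with a log2 fold change of 0.13 ± 0.18 (SE) and an adjusted p of 0.749 in edgeR. The male and female strain effects differed by 0.59 ± 0.22 (SE) on the log2 scale, the smallest unadjusted p for the interaction among the 6 genes (0.0153), but the adjusted p was 0.323 in edgeR. Averaged over the sexes the log2 fold change was -0.16 ± 0.11 (SE), with an edgeR adjusted p of 0.362.

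Itgam encodes CD11b, the alpha chain of a complement receptor that binds opsonised particles. Wistar males 2 to 5 had 12.2, 10.6, 7.54 and 6.41 CPM and SHR males 1 to 5 had 7.72, 9.39, 9.62, 8.83 and 7.32 CPM. Wistar females 1 to 5 had 10.9, 4.64, 11.5, 11.9 and 6.76 CPM and SHR females 1 to 5 had 8.87, 7.88, 8.66, 13.6 and 8.90 CPM. In both sexes the groups overlapped, and the SHR males lay within the range of the Wistar males. The log2 fold change was -0.05 ± 0.18 (SE) in males and 0.03 ± 0.26 (SE) in females, with edgeR adjusted p of 0.891 and 0.964. Within 2 standard errors, the male difference could lie between -0.42 and 0.32 and the female one between -0.48 and 0.54. The Aif1 estimate in males, -0.57, is outside both intervals, but its own interval, -0.76 to -0.38, overlaps both. The Aif1 estimate in females, -0.32, is inside both. The unequal precision of these genes shows in Wistar females, where the coefficient of variation (CV, the SD as a percentage of the mean) was 35.5% for Itgam and 17% for Aif1.

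Cd68 encodes a lysosomal membrane glycoprotein of phagocytes and rested on few counts, 54 per library on average. In males it stood at 0.989, 1.69, 1.10 and 1.46 CPM in Wistar replicates 2 to 5 and at 0.923, 0.442, 0.840, 1.08 and 0.403 CPM in SHR replicates 1 to 5. SHR male 4 lay above Wistar male 2, so the groups overlapped. The log2 fold change was -0.77 ± 0.31 (SE), larger in size than that of Aif1, but its adjusted p was 0.121 in edgeR. In females the values were 1.21, 0.746, 0.857, 1.88 and 1.09 CPM in Wistar and 1.04, 0.623, 1.33, 1.55 and 1.14 CPM in SHR rats, a log2 fold change of -0.04 ± 0.30 (SE; edgeR, adjusted p = 0.953). If both reads of a pair were counted, counting alone gives a CV of 19.2% at this depth, against CVs between libraries of 24.5% to 40.7% in the 4 groups. In neither sex did a strain difference in Cd68 pass the test at this depth.

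Cd74 encodes the invariant chain, the chaperone that fills the peptide groove of MHC class II molecules until antigen is loaded, and it had the largest strain difference in size of the 6 genes in both sexes. In males it stood at 3.35, 11.3, 2.01 and 4.55 CPM in Wistar replicates 2 to 5 and at 1.77, 1.63, 1.36, 2.39 and 1.53 CPM in SHR replicates 1 to 5. One Wistar male (replicate 4) lay below SHR male 4, and the other Wistar males lay above every SHR male. The edgeR log2 fold change was -1.55 ± 0.40 (SE), or 2.94-fold lower, with an adjusted p of 0.0259. Without Wistar male 3 it was -0.86 (adjusted p = 0.0534), and the call was also lost without SHR males 1, 3 or 5 (0.0559, 0.0656 and 0.0535).

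In females Cd74 stood at 6.24, 2.96, 4.50, 24.9 and 5.63 CPM in Wistar replicates 1 to 5 and at 1.31, 1.51, 1.52, 2.64 and 1.77 CPM in SHR replicates 1 to 5. Every SHR female lay below every Wistar female, as for 3.19% of all genes tested, and Cd74 was the 1 gene of the 6 with this pattern. It was 5.07-fold lower in SHR females, at a log2 fold change of -2.34 ± 0.51 (SE; edgeR, adjusted p = 0.0362). Without Wistar female 4, the library at 24.9 CPM, the log2 fold change was -1.50 and the adjusted p 0.0149. The call was lost when any 1 SHR female was left out, at adjusted p from 0.0767 to 0.100, while the log2 fold changes of those fits lay between -2.53 and -2.26.

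Averaged over the sexes, Cd74 fell by 1.95 ± 0.36 (SE) on the log2 scale, or 3.85-fold (edgeR, adjusted p = 0.00107). This call held in all 19 fits without 1 library, with log2 fold changes from -2.08 to -1.53 and adjusted p up to 0.00331. The 10 SHR libraries spanned 1.31 to 2.64 CPM, 2.02-fold from lowest to highest, and the 9 Wistar libraries spanned 2.01 to 24.9 CPM, 12.4-fold. The CV of Cd74 was 78.1% in Wistar males and 102% in Wistar females, above 97.8% and 98.6% of the genes tested there, against 22.7% in SHR males and 30.01% in SHR females. The median CV of all genes was 11%, 15.5%, 9.95% and 11.2% in the same order. The highest Cd74 values came from 1 library in each Wistar group, replicate 3 in males at 11.3 CPM and replicate 4 in females at 24.9 CPM. The remaining Wistar libraries lay between 2.01 and 6.24 CPM, and the CV without these high libraries was not computed. The strain effect did not differ detectably between the sexes, at -0.78 ± 0.71 (SE) on the log2 scale and an edgeR adjusted p of 0.614.

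B2m encodes beta-2-microglobulin, the light chain of MHC class I molecules, and was the most precisely counted of the 6, at 14903 counts per library on average. In males its levels were 297, 331, 340 and 282 CPM in Wistar replicates 2 to 5 and 298, 277, 339, 302 and 322 CPM in SHR replicates 1 to 5. In females they were 243, 270, 308, 333 and 291 CPM in Wistar and 291, 289, 219, 300 and 290 CPM in SHR rats. The groups overlapped in both sexes. The log2 fold change was 0.03 ± 0.08 (SE) in males and -0.08 ± 0.09 (SE) in females, with edgeR adjusted p of 0.805 and 0.672. The intervals of 2 standard errors, -0.12 to 0.19 and -0.27 to 0.10, do not reach the change of Cd74 in either sex.

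**Figure D2:**
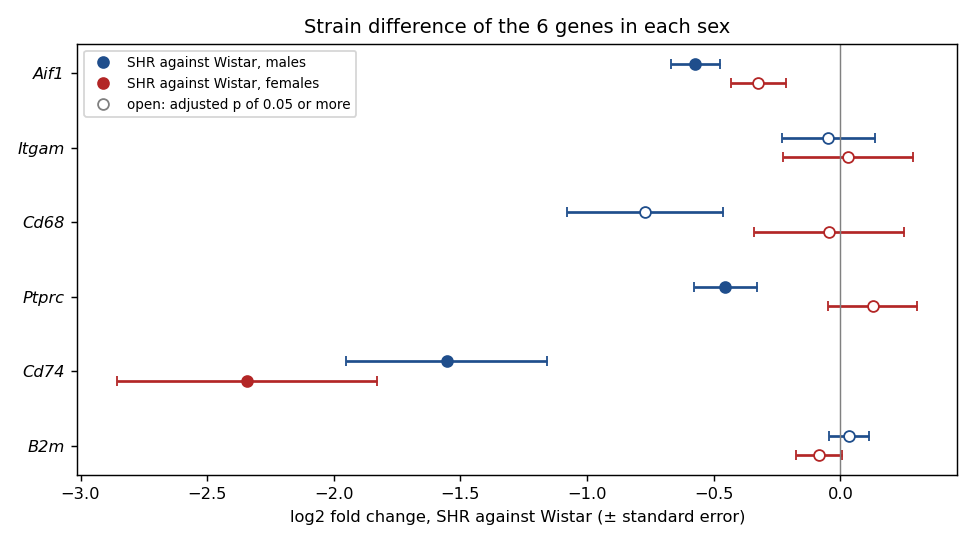
Log2 fold change of SHR against Wistar rats for each gene (horizontal axis), in males (blue) and females (red), with the standard error as bars. Filled points passed an adjusted p of 0.05: Aif1, Ptprc and Cd74 in males and Cd74 in females, all to the left of 0.

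**Figure D3:**
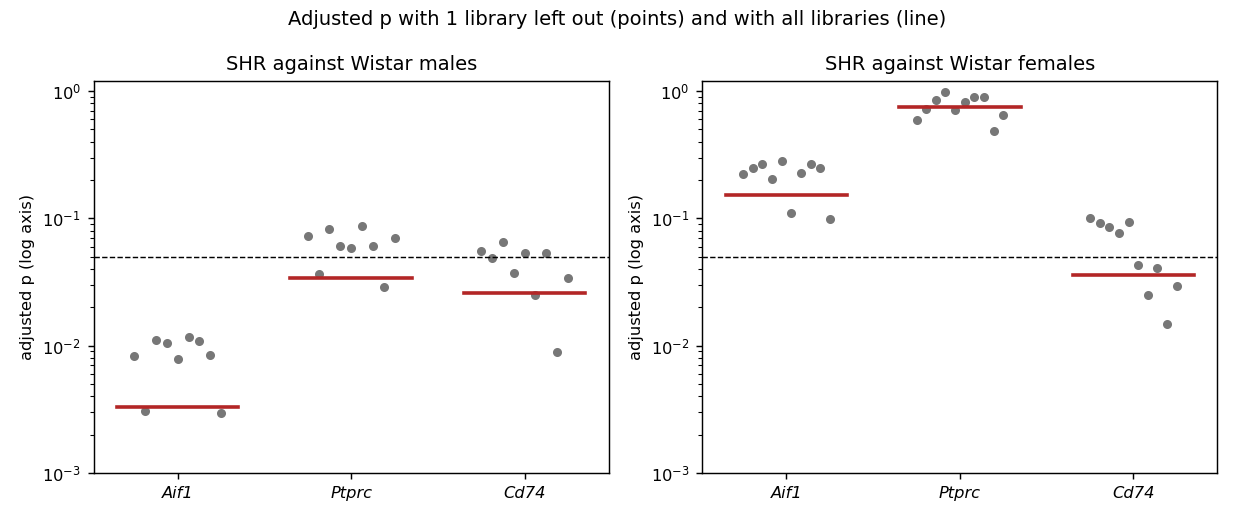
Adjusted p (log axis) for Aif1, Ptprc and Cd74 with all libraries (red line) and with each library left out in turn (points), in the male and female strain comparisons. The dashed line is the threshold of 0.05. In males all 9 points of Aif1 lay below it, 5 of 9 for Cd74 and 2 of 9 for Ptprc, and in females 5 of 10 for Cd74.

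Females were then compared with males within each strain, and none of the 6 genes passed the test in either. In Wistar rats 0.0629% of 17490 genes were called, in SHR 0.0694% of 17285. The Wistar log2 differences, females against males, ran from -0.13 for Aif1 and Cd68 to 0.76 ± 0.65 (SE) for Cd74, and none of the 6 had an unadjusted p under 0.05. In SHR, Ptprc averaged 5.39 ± 1.19 CPM in females and 3.81 ± 0.373 CPM in males (SD, n = 5 each), with SHR females 1 to 5 at or above 4.07 CPM and SHR males at or below 4.22 CPM, so the groups overlapped. Its log2 difference was 0.47 ± 0.15 (SE), with an unadjusted p of 0.00778 and an adjusted p of 0.209 in edgeR. For B2m in SHR the difference was -0.19 ± 0.08 (SE; edgeR, adjusted p = 0.299, unadjusted 0.0325). By DESeq2's Wald test with Benjamini-Hochberg adjustment, 0 of the 6 genes were called in either strain as well. Over all genes that test called 20 of 17490 in Wistar rats and 299 of 17285 in SHR.

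For the interaction of strain and sex, edgeR called 0 of 17432 genes, or 0%, and thus 0 of the 6. Before adjustment 2332 genes had a p under 0.05, with Ptprc as 1 of the 6, and DESeq2 called 36 genes, 0 of the 6. A strain effect present in 1 sex only was therefore not shown for Aif1, Ptprc or Cd68, whatever the calls within each sex.

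Since the genes were not all lower together, ratios of their counts within a library, which do not depend on the library's total, were compared between strains (log2 of the ratio, two-sided exact permutation test over libraries, Benjamini-Hochberg adjustment over the 6 ratio tests). These ratios were chosen after the values were seen, and neither their p-values nor the adjustment allow for that choice. Relative to Aif1, Cd74 was lower in SHR females by 1.65 on the log2 scale (exact permutation p = 0.00794, the smallest that 5 against 5 libraries allow, adjusted p = 0.0238). The highest SHR female ratio was -2.49 and the lowest Wistar female ratio -2.39. In males the difference of this ratio was -0.70, with an exact permutation p of 0.198, and it moved to -0.25 (exact permutation p = 0.482) without Wistar male 3 and to -1.06 (exact permutation p = 0.0357) without Wistar male 4. Relative to B2m, Cd74 was lower by 1.32 in SHR males (exact permutation p = 0.0238, adjusted p = 0.0476) and by 1.88 in SHR females (exact permutation p = 0.00794, adjusted p = 0.0238). With 1 library left out, the male difference in this ratio had an exact permutation p of 0.0179 without Wistar male 4 and from 0.0536 to 0.0857 without each of the other 8. In females the strains did not overlap in either ratio, so leaving out a library, which keeps them apart, is no check of stability. The ratio of Aif1 to Ptprc differed by -0.12 in males and -0.44 in females, with adjusted exact permutation p of 0.349 and 0.0714.

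Covariation between animals was examined over the 19 libraries after subtraction of each group's mean, for all 15 pairs of the 6 genes. Cd68 and Cd74 varied together, with Pearson's r = 0.650 (permutation p = 0.00031, adjusted p = 0.00465) and Spearman's rho = 0.677 (permutation p = 0.00136, adjusted p = 0.0204). Among 14443 genes with a mean over 50 counts, Cd74 ranked 56 by r with Cd68, and Cd68 ranked 191 by r with Cd74. Genes outside the 6 thus correlated more highly with each of them, and the pair is not particular in this. Without the 2 libraries farthest from the median of Cd68, r was 0.744. By r, the pair lost its call without Wistar female 4 (r = 0.543, adjusted permutation p = 0.081) and kept it without each of the other 18 libraries. By rho, it was lost without SHR male 1, SHR male 4 or Wistar male 4, at adjusted permutation p of 0.0864, 0.078 and 0.0641, and kept without Wistar female 4 (0.0402). For Ptprc and Cd74, r was 0.615 and rho 0.584 (adjusted permutation p = 0.0614 and 0.147), and r was 0.374 without the 2 farthest libraries. By r, this pair passed without Wistar male 3 (r = 0.759, adjusted permutation p = 0.0099) or Wistar male 2 (r = 0.655, adjusted permutation p = 0.0326), and r was 0.431 without Wistar female 4. Aif1 and Itgam (r = 0.397, adjusted permutation p = 0.407) passed without Wistar female 1 (r = 0.697, adjusted permutation p = 0.0192). With all libraries, no pair but Cd68 and Cd74 passed. The lowest r was -0.08, for Ptprc and B2m.

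**Figure D4:**
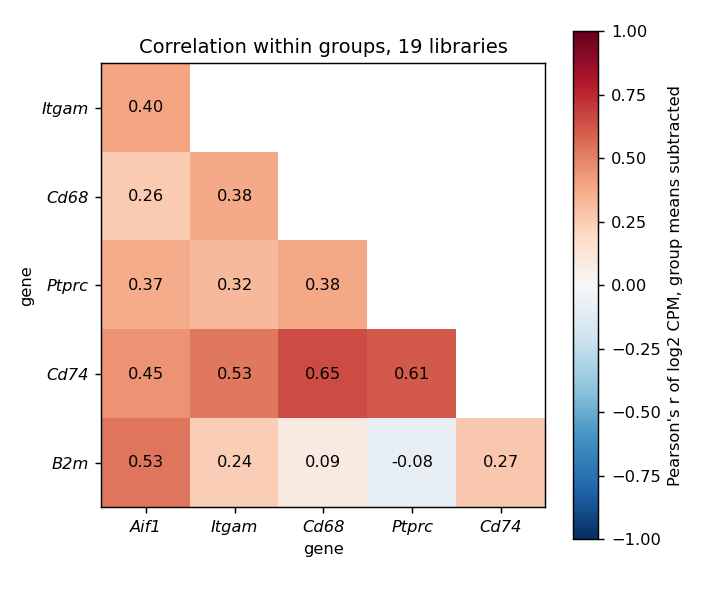
Pearson's r of log2 CPM for each pair of the 6 genes over 19 libraries, with group means subtracted. The colour and the number in each cell give r; Cd74 had its highest values with Cd68 (0.65) and Ptprc (0.61), and B2m with Aif1 (0.53).

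The 3 genes most like Cd74 across libraries, among those with a mean over 50 counts, are known here by identifier only and were singled out after their values were seen. Over the 19 libraries with group means subtracted, r with Cd74 was 0.93 for ENSRNOG00000032844, 0.90 for ENSRNOG00000011184 and 0.89 for ENSRNOG00000003183. These correlations are descriptions, and the values compared come from the same libraries. Genes picked for likeness to Cd74 tend to be high where Cd74 is high. The shared high libraries therefore follow from the choice and are no separate result. The highest levels of ENSRNOG00000032844 were 8.13 CPM in Wistar female 4 and 3.49 CPM in Wistar male 3, the libraries in which Cd74 was highest in its groups. ENSRNOG00000011184 was highest in the same libraries, at 37.1 and 22.5 CPM, and so was ENSRNOG00000003183, at 9.07 and 8.996 CPM. The filter on the mean count can be passed through a group in which a gene is high, so no strain test is given for these 3 genes.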

How the data were processed

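PVN RNA of 19 rats was sequenced as stranded poly(A) libraries. The authors trimmed reads with Trimmomatic, aligned them with STAR (Rn7) and used featureCounts to count them per gene. The deposited values are these raw counts, not normalized by the authors. The featureCounts settings and the annotation release are not given in the sources used here. Of the counts from 1 to 100, 73.9% were even, so the counts may hold both reads of a pair, and counting errors were taken at counts divided by 2. The symbols of the 6 genes came with their identifiers as given for this work.

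Genes with a mean above 5 median-of-ratios normalized counts in the libraries of a comparison were tested with R 4.3.3 and edgeR 4.0.16 (TMM factors, quasi-likelihood test, Benjamini-Hochberg adjustment over all genes tested, threshold 0.05, two-sided). Only the groups compared entered each fit, and all 4 groups entered the averaged strain effect and the interaction. Intervals are 2 standard errors to each side. The authors used DESeq2's Wald test and name the Bonferroni adjustment, and DESeq2 1.42.0 with either adjustment was an alternative. The other alternatives were edgeR with Bonferroni adjustment, DESeq2's size factors, no filter, filterByExpr, a fit of all 4 groups, a block or a linear covariate for the replicate number, counts divided by 2, and leaving out each library. Correlations used 100000 permutations within groups (numpy 2.4.6, scipy 1.17.1), and plots matplotlib 3.10.9. The scripts for the fits were tested on simulated data in which every gene had the same spread beyond counting noise. That test does not cover genes as variable as Cd74 in Wistar rats.

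The genes, motifs and lists were chosen with earlier results of these data known. Named genes were the 6 and, for likeness, 3 identifiers. Other gene lists (microglial, complement, MHC, interferon and other cell types) were not analysed here, as they need symbols. The labels name single rats, and no 2 libraries of a group agreed within sampling noise. The p-values weigh each difference or correlation against the variation between these libraries.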

Additional observations from a re-analysis of the deposited data

Results flagged for a closer look

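Among the 24 sets of 4 or 5 libraries (6 genes in 4 groups), 3 held a library far from the others by Dixon's ratio of the gap to the range. For independent sets of normal values, chance alone marks about 1 set in 20. These sets share libraries, and the ratio was taken on CPM without logs, so that rate is only a rough guide. Cd74 in Wistar females was highest in replicate 4, at 24.9 CPM, and the other Wistar females lay between 2.96 and 6.24 CPM. Itgam in SHR females was highest in replicate 4, at 13.6 CPM, with the others between 7.88 and 8.90 CPM. B2m in SHR females was lowest in replicate 3, at 219 CPM, with the others between 289 and 300 CPM. Replicate 4 was the highest of its group for all 6 genes in both female groups, and in no male group was 1 library the highest for more than 3 of the 6. The share of all genes with replicate 4 highest was not counted.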

How the results depend on the processing

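Aif1 in males kept its call and direction in 9 of 10 alternative settings and in all 9 fits without 1 library, and the averaged calls of Aif1 and Cd74 were lost only with edgeR and Bonferroni adjustment. The depth limits Cd68 most, and a difference that missed the threshold is not shown to be absent. Of the 6 genes, 3 were called in males, beside 2102 of 17461 genes tested. With Bonferroni adjustment 0 were called in edgeR, beside 87 of 17461, and 1 in DESeq2, beside 542 of 17461. With all 4 groups in 1 fit 1 was called, beside 1465 of 17432, and without 1 library 1 to 3, beside 1203 to 1883 genes. In females 1 was called, beside 403 of 17404 genes, and 0 with either Bonferroni adjustment, beside 40 in edgeR and 234 in DESeq2. Without 1 library 0 to 1 were called in females, beside 174 to 811 genes. Averaged over the sexes 2 were called, beside 2635 of 17432 genes, and 0 with edgeR and Bonferroni adjustment, beside 246. The labels do not say whether the replicate numbers pair the rats. Correlations of same-numbered libraries ran from -0.17 to 0.33. Between strains, SHR males 2, 3 and 5 and SHR females 2, 4 and 5 correlated best with the Wistar library of their own number. SHR male 4 and SHR females 1 and 3 did not. Between sexes, only Wistar female 5 and SHR female 1 correlated best with the male of their own number. These correlations cannot decide whether rats were paired. With the number as a block, 1 of the 6 genes was called in males, beside 1916 of 17461. It was Aif1, and Ptprc and Cd74 had edgeR adjusted p of 0.0613 and 0.0818. In females Cd74 kept its call under the block (log2 fold change -1.99 ± 0.30 SE, edgeR adjusted p = 0.0211), 1 of 6 genes, beside 405 of 17404. In the average 2 of the 6 genes were called under the block, beside 3252 of 17432. For the interaction, the genes called over the table rose from 0 to 32 under the block. The log2 difference of Itgam changed sign under the block in males (0.0273), in the average (0.00837) and between sexes in Wistar (-0.10; -0.00703 with the number as a linear covariate), and with both female replicates 4 left out in females (-0.0204), where Cd68 turned to 0.05; none of these passed. Without 1 library, signs also changed among differences that did not pass: Itgam ran from -0.20 to 0.14 in males, -0.14 to 0.14 in females, -0.0874 to 0.0875 in the average, -0.12 to 0.22 between sexes in Wistar, -0.0364 to 0.18 between sexes in SHR and -0.10 to 0.24 for the interaction; B2m from -0.0292 to 0.0841 in males and -0.0545 to 0.0137 in the average; Cd68 from -0.17 to 0.19 in females and -0.36 to 0.0170 between sexes in Wistar; Cd74 from -0.0791 to 1.46 between sexes in Wistar, -0.22 to 0.11 in SHR and -1.48 to 0.0594 for the interaction. Of 15 pairs, 1 correlated; without subtraction of group means it was 3 (with r = -0.0125 for Cd68 and B2m), and without 1 library 0 to 2, with r from -0.0939 to 0.249 for Cd68 and B2m, -0.347 to 0.0550 for Ptprc and B2m and -0.0104 to 0.415 for Cd74 and B2m. The cause of these moves was not tested. Over all genes, calls in males numbered 2102, 87 and 542 with Bonferroni adjustment in edgeR and DESeq2, and 1203 to 1883 without 1 library. In females they numbered 403, and 1095 with DESeq2, 1104 with all 4 groups in 1 fit, 835 with the linear covariate, 40 and 234 with Bonferroni adjustment in edgeR and DESeq2, 174 to 811 without 1 library and 141 without both replicates 4. In the average they numbered 2635, and 246 and 686 with Bonferroni adjustment. Between sexes DESeq2 called 20 genes against 11 in Wistar and 299 against 12 in SHR (30 with Bonferroni adjustment, 24 in edgeR with the linear covariate), and for the interaction 36 against 0 (9 with Bonferroni adjustment).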
